A study of Mus musculus with 15 samples.

Results

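The 10 genes described are 5 uroplakins (Upk1a, Upk1b, Upk2, Upk3a and Upk3b) and 5 genes assigned to the basal layer of stratified epithelium (Krt5, Krt14, Trp63, Fat2 and Clca2), out of 23393 genes listed by symbol in each of 3 deposited comparisons of mouse kidneys. They were found by symbol in all 3 tables, whatever status the authors gave them, and they were chosen by their log2 fold changes in these same tables. Their fold changes and the authors' p-values are therefore given as a description. The control kidneys came from C57BL/6 mice of the genotype ERRg fl/fl, and the kidneys labelled knockout from ERRg fl/fl;Sim1-Cre littermates, so that floxed Esrrg alleles are shared by both groups and only the second carries a Cre recombinase driven by Sim1. The sources used here do not say which kidney cells this Cre reaches. By the labels, the 3-week males comprised 2 controls and 3 knockouts, the 3-week females 2 of each genotype and the 3-month males 3 of each. For the knockout kidneys of 3 months 1 label field reads female where the title and the sex field read male. In the authors' deposited table of 3-month males Xist, the RNA of the inactive X chromosome, had a mean of 11.9 normalized counts, against 23848 in that of females.

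Urothelium is the stratified lining of the renal pelvis, ureter and bladder. Its superficial umbrella cells carry plaques of uroplakin proteins, which make the urinary surface impermeable; UPK1A pairs with UPK2 and UPK1B with UPK3A. Its basal cells carry the keratins KRT5 and, in part, KRT14, and the transcription factor p63, encoded by Trp63, which maintains basal cells of stratified epithelia. A kidney taken whole holds this lining only where the pelvis and papilla are included. In bulk RNA, fewer cells of a type and less RNA per cell cannot be told apart.

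The uroplakin genes lie on different chromosomes, at chr7:30603092-30612847 (Upk1a, minus strand), chr16:38773184-38800328 (Upk1b, minus), chr9:44452715-44454976 (Upk2, minus), chr15:85017141-85022547 (Upk3a, plus) and chr5:136038496-136046487 (Upk3b, plus) in GENCODE M21 (build GRCm38, that is mm10). Krt5 lies at chr15:101707070-101712898, Krt14 at chr11:100203162-100207548, Fat2 at chr11:55250609-55336564 (all minus strand) and Trp63 at chr16:25683763-25892102 (plus). No other annotated gene overlaps Krt14, Fat2 or any of the uroplakins, while Krt5 overlaps a microRNA and Trp63 a small nuclear RNA and a pseudogene. The symbol Clca2 is ambiguous. RefSeq lists Clca5 and Clca3 as older names of today's Clca2 and Clca1, and Clca2 as an older name of Clca3a2 and of Clca1. Clca5 and Clca3 both have rows here beside Clca2, and Clca3a2 has none. Read by these older names, the row is Clca3a2 and not the basal epithelial CLCA2. It is counted among the 5 basal genes by its symbol only. It is called the Clca2 row here, without a position or a length.

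Promoter windows of 250 bases before to 50 bases after the gene start are shown for 3 members that had positive fold changes together, the uroplakin and the basal keratin with the highest fold change at 3 months and the uroplakin with the lowest (RefSeq, GRCm38.p6, 5′ to 3′ in the direction of the gene). The capitals mark GATAAG, a motif of GATA factors.
Upk3a, chr15:85016891-85017190, plus strand: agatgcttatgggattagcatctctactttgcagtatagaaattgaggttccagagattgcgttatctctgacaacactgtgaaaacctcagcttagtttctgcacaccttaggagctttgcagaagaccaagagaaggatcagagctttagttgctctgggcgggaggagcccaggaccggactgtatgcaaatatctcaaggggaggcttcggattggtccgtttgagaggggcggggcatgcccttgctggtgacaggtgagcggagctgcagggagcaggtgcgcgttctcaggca
Krt5, chr15:101712856-101713155, minus strand: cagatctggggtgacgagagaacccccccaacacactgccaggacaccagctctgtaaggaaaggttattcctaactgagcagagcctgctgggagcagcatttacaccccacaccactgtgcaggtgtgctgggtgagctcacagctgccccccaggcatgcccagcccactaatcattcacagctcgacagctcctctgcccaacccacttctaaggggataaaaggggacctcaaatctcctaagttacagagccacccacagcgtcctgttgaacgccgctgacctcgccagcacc
Upk3b, chr5:136038246-136038545, plus strand: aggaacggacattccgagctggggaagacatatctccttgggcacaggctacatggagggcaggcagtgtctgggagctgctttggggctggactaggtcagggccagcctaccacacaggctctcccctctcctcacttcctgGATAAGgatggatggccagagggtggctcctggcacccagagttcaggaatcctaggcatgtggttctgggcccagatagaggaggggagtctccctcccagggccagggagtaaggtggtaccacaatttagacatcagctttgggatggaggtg
Windows were found for 6 members besides the Clca2 row: Upk1a, Upk3a, Upk3b, Krt5, Krt14 and Fat2. Those of Krt14 and Fat2 start inside the GENCODE gene models and not at their outer ends. The ERR half-site AAGGTCA, searched on both strands, was in 0 of these 6 windows and in 4.72% of all 32851 promoter windows. GATAAG, likewise searched on both strands, was in 2 of the 6, 106 bases before the start of Upk3b and 41 bases before that of Krt14, and in 7.44% of all windows. The letters of the motifs do not overlap one another in these windows.

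Values of single libraries were not available, so no spread between kidneys can be shown. For each gene the tables list the mean normalized count across both genotypes, the log2 ratio of the genotypes and its standard error (SE). Genes with the status OK also have p-values, raw and adjusted. In units of 1e6, the means summed to 47.5 (3-week males), 33.9 (3-week females) and 18.8 (3-month males). From the steps that single reads leave in the lowest means, 4, 4 and 5 libraries were counted, against 5, 4 and 6 by the labels. Markers of the kidney were present in each table, from 28.9 counts per 1e6 of the table's total (CPM) for Nphs1 of podocytes to 4553 CPM for Slc34a1, the phosphate transporter of the proximal tubule. Which genotype is on top of the ratio is not named. Positive values are read as higher in the kidneys labelled knockout, since ERRγ is linked in the title of the study to reabsorptive function and, so read, Slc34a1 was lower there, at -0.91 ± 0.15, -0.54 ± 0.13 and -2.51 ± 0.58 in the authors' deposited tables (the last with no p-value). Esrrg itself goes against this reading at 3 weeks, with 0.82 ± 0.20 in males and 1.04 ± 0.17 in females in the authors' deposited tables, and with it at 3 months (-0.87 ± 0.57, no p-value). Which exon was deleted is not stated, so Esrrg is no check of the deletion or of the labels here, and with the ratio turned every direction below changes sides.

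All 5 uroplakins and all 5 basal genes had positive fold changes in all 3 authors' deposited tables. Their median log2 fold change was 1.61 for males and 0.46 for females at 3 weeks, and 7.84 for males at 3 months, against medians of -0.0055, 0.0086 and 0.011 over all genes tested. The 3 ranges were 0.45 to 2.21, 0.036 to 1.16 and 5.52 to 10.02, so that every member was higher at 3 months than any member was at 3 weeks. Only part of these values came with a p-value, since the authors' status Outlier, which withholds it, held 7 of the 10 genes at 3 weeks in males, 9 in females and 5 at 3 months. All 5 uroplakins had that status in all 3 comparisons, so no uroplakin has a p-value. The members called by the authors' adjusted p are thus all basal genes. Among all genes with a mean of at least 10 that status held 4.01%, 5.62% and 10.6%. By the authors' adjusted p under 0.05, 2 of 3 members with a p-value were called higher in 3-week males, where 8.81% of all tested genes were called higher, 8.52% lower and 17.3% in either direction. In females it was 1 of 1, beside 8.29% higher, 10.4% lower and 18.7% in all, and at 3 months 5 of 5, beside 29.8%, 27.8% and 57.5%. No member was called lower. Nothing is read from these counts, because the members were chosen from the same tables.

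**Figure D1:**
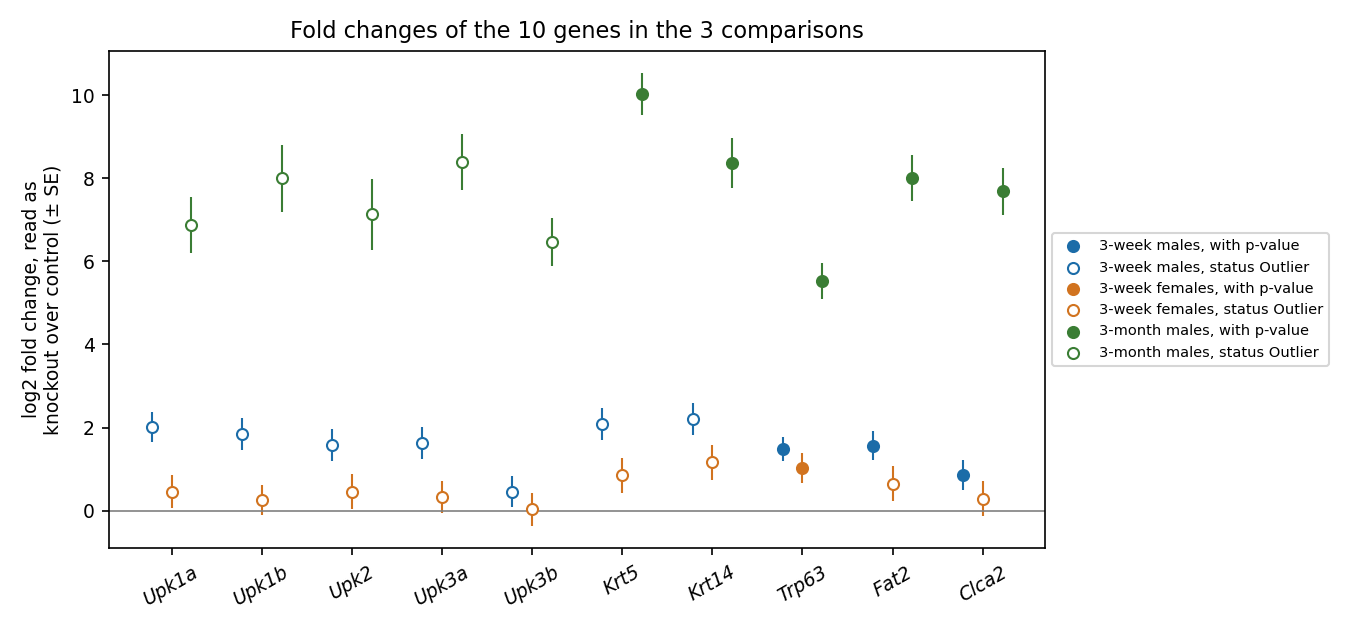
Log2 fold changes (vertical axis, read as knockout over control) of the 10 genes in the 3 deposited comparisons, with the authors' standard errors as bars. Filled points have a deposited p-value and open points the status Outlier. The values of 3-month males lie between 5.52 and 10.02, above all of those at 3 weeks, and those of females lie lowest for every gene.

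The partners UPK1A and UPK2 of the plaque stood close to each other. For Upk1a, which encodes a tetraspanin, the authors' deposited tables gave means of 1481 normalized counts (3-week males), 906 (3-week females) and 4014 (3-month males), the order used for all genes below. The log2 fold changes of Upk1a in the authors' deposited tables were 2.01 ± 0.37, 0.46 ± 0.39 and 6.87 ± 0.67 (SE) respectively. Upk2, which encodes a protein with a single membrane span, was less abundant, with means of 506, 333 and 1367. In the authors' deposited tables Upk2 stood at 1.58 ± 0.38, 0.45 ± 0.42 and 7.13 ± 0.86. All these values of Upk1a and Upk2 had the status Outlier and no p-value. At each age and in each sex the values of this pair lay within 1 SE of each other or, in 3-week males, within the sum of their SEs.

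The other pair of the plaque showed the same order of the 3 comparisons. Upk1b, the other tetraspanin of the plaque, had means of 1695, 938 and 4230 and, in the authors' deposited tables, log2 fold changes of 1.84 ± 0.38, 0.26 ± 0.37 and 8.00 ± 0.80. Upk3a, whose product carries the longest cytoplasmic tail of the plaque proteins, had means of 1549, 948 and 2405. Its fold changes in the authors' deposited tables were 1.63 ± 0.39, 0.33 ± 0.38 and 8.39 ± 0.68. All these values of Upk1b and Upk3a had the status Outlier and no p-value. At 3 months Upk3a ranked 4 and Upk1b 13 from the top among 14341 genes with a mean of at least 10, and in females they ranked 3149 and 3896 among 14989.

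Upk3b stood lowest of the uroplakins in all 3 comparisons. It encodes a relative of UPK3A that is made in urothelium and also in mesothelium, the outer lining of organs. The authors' deposited tables gave means of 772, 551 and 722 and, in the same order, log2 fold changes of 0.45 ± 0.37, 0.04 ± 0.40 and 6.47 ± 0.58. All 3 values had the status Outlier and no p-value.  Of 5 mesothelial genes in the tables none passed the test at 3 weeks (4 had a p-value in males and 3 in females). At 3 months the 1 with a p-value, Lrrn4, rose (29.8% of all tested genes did), at 1.92 ± 0.69 in the authors' deposited table (adjusted p = 0.0105). Msln (mesothelin) stood at 0.56 ± 0.36, 0.11 ± 0.42 and 5.57 ± 0.53 in the authors' deposited tables, all with the status Outlier, and Wt1 at -0.02 ± 0.21, 0.15 ± 0.19 and -0.06 ± 0.44. Wt1 is also a podocyte gene. Gpm6a, a membrane glycoprotein, stood at -1.70 ± 0.38 in the authors' deposited table of 3-month males, with the status Outlier. At that age 2 of the 4 genes of this list with a mean of at least 10 were positive. Bnc1, with a mean of 7.34 and the status Low, stood at 2.21 ± 0.60. The summed level of the list implied by means and fold changes was 185.3 CPM in controls and 132.2 in the kidneys labelled knockout. Gpm6a weighs most in this sum, with a mean of 2056 normalized counts against 608 for Msln, 304 for Wt1 and 11.5 for Lrrn4. The sum therefore does not describe the other genes of the list.

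Among the basal genes, the 2 keratins carried the highest fold changes in males of both ages, while in females Trp63 stood between them. Krt5, the basal type II keratin, had means of 1045, 644 and 1136 in the authors' deposited tables. Its log2 fold changes there were 2.09 ± 0.38, 0.86 ± 0.42 and 10.02 ± 0.50 (adjusted p = 3.07e-85 at 3 months, where it ranked 2 from the top). Krt14, its type I partner, had means of 332, 261 and 363 and stood at 2.21 ± 0.38, 1.16 ± 0.42 and 8.37 ± 0.61 in the authors' deposited tables (adjusted p = 1.35e-41 at 3 months). At 3 weeks both keratins had the status Outlier in either sex, so neither has a p-value there.

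Trp63 was the one member with a p-value in every comparison. The authors' deposited tables gave means of 194, 153 and 323 and log2 fold changes of 1.48 ± 0.28 (adjusted p = 5.51e-06), 1.03 ± 0.37 (adjusted p = 0.0310) and 5.52 ± 0.43 (adjusted p = 2.20e-35) for the 3 comparisons in the order above. Its 3-month value was the lowest of the 10, although still rank 85 among all genes. Fat2, a large atypical cadherin of stratified epithelia, had means of 123, 102 and 242. In the authors' deposited tables Fat2 stood at 1.57 ± 0.36 (adjusted p = 0.000188), 0.65 ± 0.42 and 8.00 ± 0.55 (adjusted p = 1.91e-46). The Clca2 row, of a family of secreted proteins that modulate chloride conductance, had means of 127, 103 and 195. The authors' deposited tables gave it 0.86 ± 0.36 (adjusted p = 0.0785, not called), 0.29 ± 0.42 and 7.68 ± 0.56 (adjusted p = 6.12e-41).

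**Figure D2:**
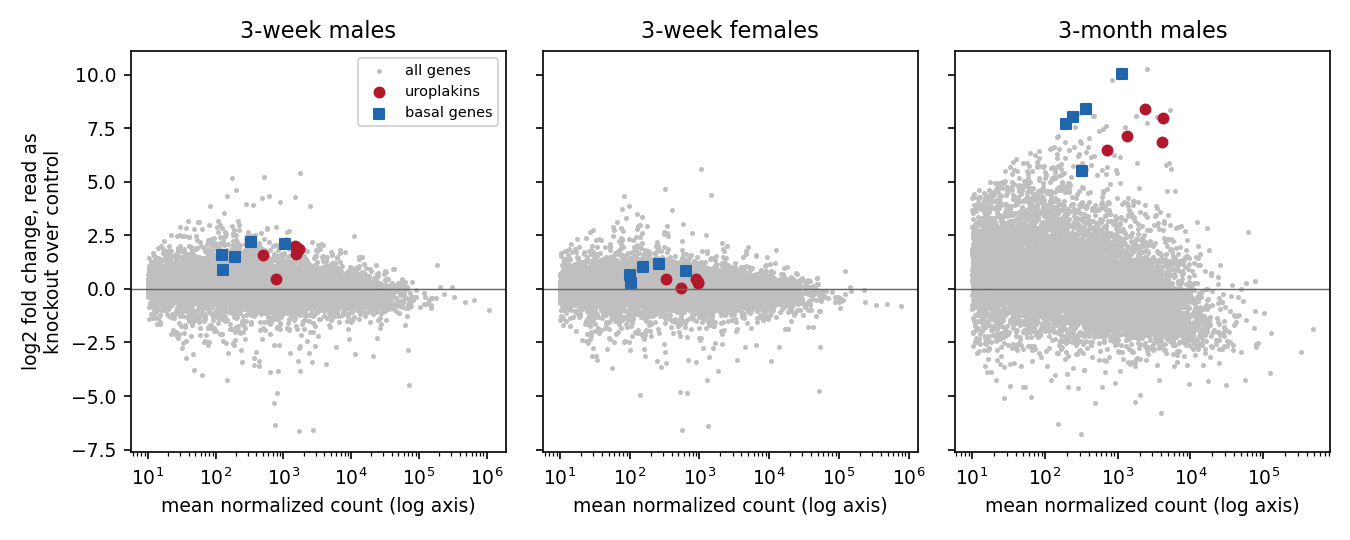
Log2 fold change (read as knockout over control) against the mean normalized count (log axis) for all genes with a mean of at least 10 in each deposited comparison, with uroplakins as circles and basal genes as squares. At 3 months the 10 genes take ranks between 2 and 85 of 14341, and in 3-week females ranks between 339 and 7021 of 14989.

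Compared per length, the genes kept nearly the same order of levels in the 3 tables. Levels are the deposited mean over both genotypes, in CPM per kb of annotated exon. In 3-week males the order was Upk3a (29.8), Upk1a (21.9), Upk1b (17.1), Krt5 (10.0), Upk2 (9.83), Upk3b (4.61), Krt14 (3.97), Trp63 (0.487) and Fat2 (0.179). In females the same scale gave 25.6 for Upk3a, 18.8 for Upk1a, 13.3 for Upk1b, 9.08 for Upk2, 8.66 for Krt5, 4.61 for Upk3b, 4.38 for Krt14, 0.538 for Trp63 and 0.208 for Fat2, so that Krt5 and Upk2 changed places. At 3 months Upk1a (150.2) stood above Upk3a (117.0), Upk1b (107.7), Upk2 (67.1), Krt5 (27.5), Krt14 (11.0), Upk3b (10.9), Trp63 (2.05) and Fat2 (0.887). The spread between libraries is not in the tables, so no neighbours in these orders can be called different. The tables were normalized separately, and levels are compared across them for their order of magnitude only.

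**Figure D3:**
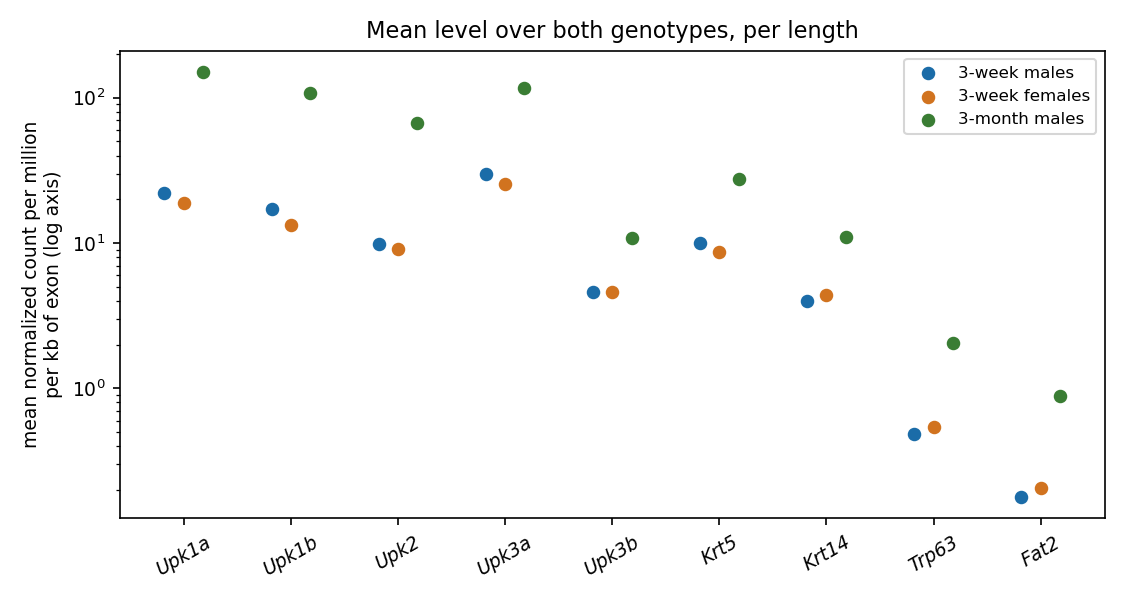
Mean level in CPM per kb of exon (log axis), over both genotypes, for the 9 members with a settled gene model. Each gene has 1 point per comparison, and the 3-month point is the highest for all 9, from 0.887 for Fat2 to 150.2 for Upk1a.

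The 3-month fold changes leave little of the mean for the control kidneys. With equal numbers of libraries per genotype and a fold change not drawn towards 0, a mean and a fold change together imply a level in each group. Neither is known to hold here, so the implied levels are rough. Summed over the 10 genes, the implied control level was 79.1 CPM in 3-week males, 123.4 in 3-week females and 9.17 in 3-month males, and the implied level in the kidneys labelled knockout was 250.4, 168.4 and 1586. At 3 months the implied control mean was 2.19 normalized counts for Krt5, 2.18 for Krt14, 1.88 for Fat2 and 1.89 for the Clca2 row, against 14.3 for Upk3a, 33.0 for Upk1b and 67.9 for Upk1a. With 2 knockout and 3 control libraries, the numbers that the read steps and their signs give, the values are 2.73 for Krt5 and 84.5 for Upk1a. The sums were not redone with these numbers. Whether control libraries held reads of these genes at all cannot be read from a mean, and a fitted fold change against a group near 0 has no fixed size.

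Set side by side, the differences between the sexes at 3 weeks were of one sign and those between the ages were large. The female value lay below the male one for all 10 genes. Females minus males, the difference of the log2 fold changes in the authors' deposited tables was -1.59 for Upk1b (SE of the difference 0.53), -1.55 for Upk1a, -1.24 for Krt5 and, at the smallest, -0.42 for Upk3b (SE 0.54). The 3-month male value lay above the 3-week one by 4.05 (Trp63, SE 0.52) to 7.93 (Krt5, SE 0.63). These differences come from the values that chose the members and were not tested. The largest SE in a table was 0.44, 0.42 and 1.10. These upper limits also hold for the genes of status Low, which have means under 10 (8123, 8404 and 9052 genes). Fold changes thus look drawn towards 0, and more strongly at 3 weeks than at 3 months. The amount is not stated. Part of the differences between ages can come from this, which was not tested, so sizes across tables carry this limit.

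Of other genes listed for the urothelium that had a p-value, most were called higher in males and few in females. The lists were made with earlier results of these data known. Of 19 genes of superficial and differentiating urothelium, 14 had a p-value in 3-week males, and 10 of these rose and none fell (8.81% and 8.52% of all tested genes), with a median of 1.02. Krt20, a keratin of umbrella cells and of injured tubules, stood at 4.08 ± 0.33 (adjusted p = 1.85e-32), Cldn4, a tight junction claudin, at 1.499 ± 0.230 (4.69e-09) and Krt18 at 1.42 ± 0.29 (1.68e-05) in the authors' deposited table. In females 2 of 9 rose and none fell, beside 8.29% and 10.4% of all tested genes, and the median of the 9 was 0.06. With 9 genes this count is too small to be read against those shares. The 2 were Krt20 at 2.61 ± 0.33 (adjusted p = 1.90e-13) and Rab27b, a vesicle GTPase, at 0.80 ± 0.28 (adjusted p = 0.0266) in the authors' deposited table. At 3 months 5 of 5 with a p-value rose (29.8%), and 13 more had the status Outlier. Among the 5, the authors' deposited table gave 2.18 ± 0.16 for Ehf, 3.51 ± 0.30 for Cldn4 and 5.38 ± 0.47 for Krt20. All 18 genes of this list with a mean of at least 10 were positive at 3 months, with a median of 4.06.

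Genes listed for the basal layer and its hemidesmosomes were higher in each comparison in part. In the list of basal keratins and hemidesmosome genes 5 of 9 rose and 1 (Dst) fell in 3-week males, 4 of 9 rose in females, and 6 of 9 rose and 1 (Dst) fell at 3 months. The shares of all tested genes called higher and lower were 8.81% and 8.52%, 8.29% and 10.4%, and 29.8% and 27.8% in that order. Col17a1, the hemidesmosomal collagen, stood at 2.44 ± 0.38, 1.61 ± 0.41 and 7.07 ± 0.61 in the authors' deposited tables (adjusted p = 7.15e-09, 0.00121 and 6.63e-30). Itgb4, the integrin of hemidesmosomes, stood at 1.29 ± 0.26, 0.98 ± 0.28 and 3.68 ± 0.18 by the authors' deposited tables. Itga6 stood at -0.09 ± 0.19, 0.36 ± 0.23 and -0.06 ± 0.36 there, not called in any comparison. Lama3, also not called in any, stood at -0.11 ± 0.25, -0.43 ± 0.29 and 0.03 ± 0.37. The genes called higher include the keratin Krt17 (at 3 weeks only), Tfap2a (in males only) and Ngfr, which are not parts of the hemidesmosome. Among 18 genes of desmosomes and stratified adhesion, 8 of 12 rose and 1 (Gjb2, a gap junction protein) fell in 3-week males, 2 of 9 rose and 1 (Gjb2) fell in females, and 6 of 7 rose at 3 months. With 9 genes, the counts of this list in females are too small to be read against the shares just given for all genes. Gjb2 stood at -2.02 ± 0.38 at 3 months in the authors' deposited table, with the status Outlier. Examples in the authors' deposited tables were Cdh3, P-cadherin, at 1.51 ± 0.18 in 3-week males, Dsc2, a desmosomal cadherin, at 1.08 ± 0.20 in females and Dsp, desmoplakin, at 2.13 ± 0.10 in 3-month males.

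Genes of cornified squamous epithelium differed widely in level. Of 12 in the tables, 6, 6 and 7 had the status Low, which goes with means under 10, and Cnfn was listed at 0 in each table. Sprr1a, a precursor of the cornified envelope, had means of 2245, 1417 and 5226 normalized counts in the authors' deposited tables, the last above every member. At 3 weeks 0 of 3 genes with a p-value passed the test in either sex. At 3 months 1 of 3 rose, Krt4 at 5.93 ± 0.65 in the authors' deposited table (adjusted p = 6.62e-19), and 2 of 3, Tgm1 and Krt10, fell, where 29.8% of all tested genes were called higher and 27.8% lower. Sprr1a and Ivl had the status Outlier in every table and stood at 8.37 ± 0.66 and 6.64 ± 0.68 at 3 months in the authors' deposited table.

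Genes from lists drawn up for tissues next to the urothelium were also higher at 3 months, in part. Such genes need not be specific to those tissues. Of the genes of pelvic and ureteral smooth muscle, 7 of 11 rose and none fell (29.8% and 27.8% of all tested genes), with Acta2 at 3.16 ± 0.25, Tagln at 3.05 ± 0.24 and Actg2 at 5.06 ± 0.59 in the authors' deposited table. Of 7 fat cell genes all 3 with a p-value rose at 3 months, Retn (resistin) at 6.80 ± 0.42, Plin1 (perilipin) at 4.67 ± 0.50 and Thrsp at 2.62 ± 0.32 in the authors' deposited table. The other 4 were positive with the status Outlier. Among the 6 genes of the inner medulla used here 2 of 2 with a p-value rose at 3 months, Fxyd4 at 2.58 ± 0.17 and Cryab at 2.06 ± 0.18. Slc14a2, the urea transporter of the inner medulla, stood at 7.45 ± 0.70 in the authors' deposited table of 3-month males, with the status Outlier, and at 0.20 ± 0.25 in that of 3-week males. The implied sum of the inner medulla list at 3 months was 164.5 CPM in controls and 843 in the kidneys labelled knockout, that of the smooth muscle list 279.7 and 656, and that of the fat list 24.0 and 834. These sums take equal numbers of libraries per genotype and are rough. Aqp2, with a mean of 4722 normalized counts, weighs most in the inner medulla sum, and Cfd, with 5499, in the fat sum. Each had the status Outlier. Slc34a1 of the cortex went the other way, as given above. The part of these tissues in the fold changes of the uroplakins and basal genes was not tested.

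At 3 weeks most genes of the smooth muscle and fat lists had the status Outlier, 8 of 13 and 6 of 7 in males, 7 of 13 and 5 of 7 in females. In 3-week males 2 of 5 smooth muscle genes with a p-value rose, beside 8.81% of all tested genes (Myocd at 1.44 ± 0.37 and Pcp4 at 1.13 ± 0.30 in the authors' deposited table), and neither Lep (leptin), the 1 fat gene with a p-value, nor any of the 3 inner medulla genes used here that have one passed the test. Acta2 at 1.61 ± 0.33 and Tagln at 1.13 ± 0.28 in the authors' deposited table of 3-week males had no p-value, and lay within the range of the uroplakins there. In 3-week females no gene of these 3 lists passed the test, among 6 smooth muscle genes, 1 fat gene and 2 inner medulla genes with a p-value. The medians of the smooth muscle, fat and inner medulla lists, over genes with a mean of at least 10, were 0.66, 0.10 and 0.24 in 3-week males, -0.22, -0.09 and -0.21 for females and 1.53, 4.68 and 2.23 for 3-month males. The female fat median turns positive (0.06) with total-count scaling.

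**Figure D4:**
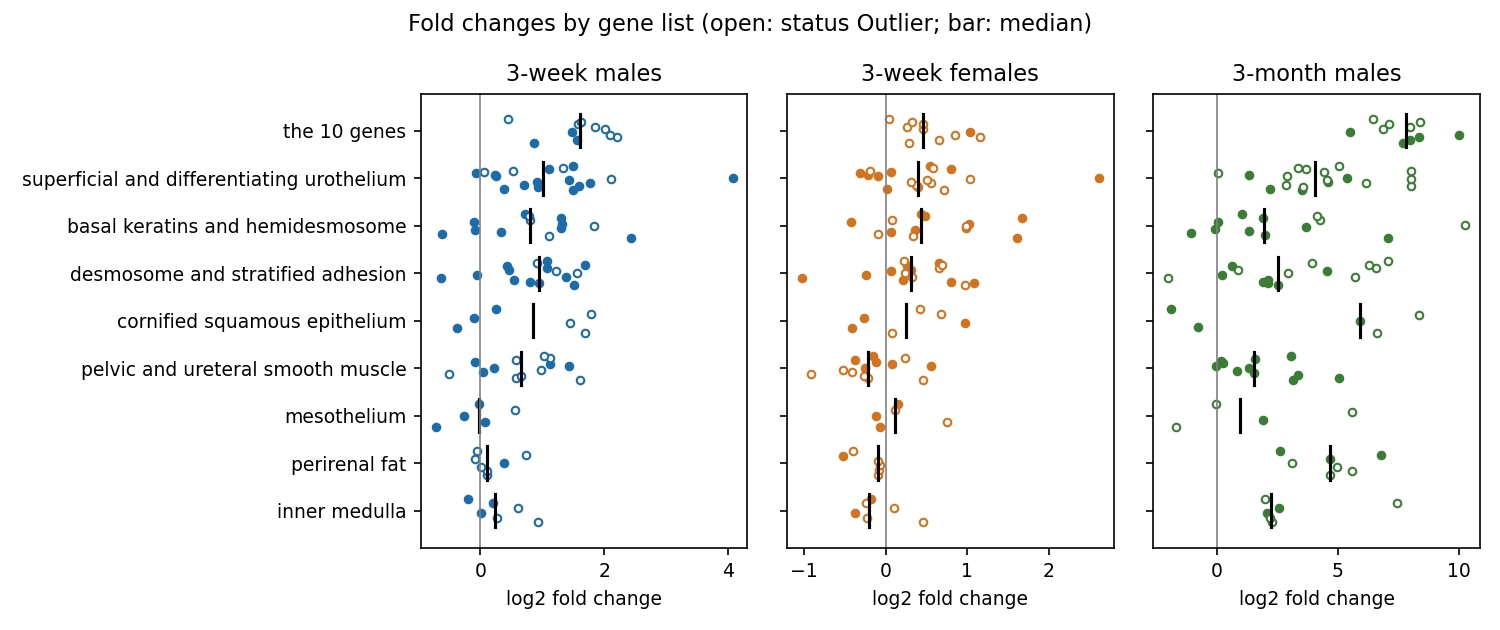
Log2 fold changes (horizontal axis, a separate scale for each comparison) of the 10 genes and of 8 gene lists, with 1 point per gene with a mean of at least 10, open points for the status Outlier and a bar at the median. The medians of the 10 genes are 1.61, 0.46 and 7.84, and the fat list lies near 0 at 3 weeks and has a median of 4.68 at 3 months.

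The difference between ages was tested for list genes that are not members. The lists were made with earlier results of these data known. Fold changes look drawn towards 0 more strongly in 3-week males (largest SE 0.44) than in 3-month males (1.10). Part of a difference between ages can come from this, which was not tested. A normal test of the difference of 2 deposited log2 fold changes, with Benjamini-Hochberg adjustment over all 12355 genes with a p-value at both ages, called 13 of 27 list genes higher at 3 months and 1 lower, where 16.8% and 10.9% of all tested genes were called, 27.7% in either direction. Col17a1 differed by 4.63 ± 0.71 (adjusted p = 5.16e-09), Klf5, a transcription factor of urothelium, by 3.69 ± 0.55 (1.78e-09) and Itgb4 by 2.39 ± 0.31 (2.11e-12). The same test between the sexes at 3 weeks called 0 of 34 list genes, and 0 of 13737 genes in all. At an unadjusted p under 0.05 it gave 2 and 237 genes, and the lowest adjusted p over all genes was 0.224.

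Some genes had fold changes close to those of the members in all 3 tables. By Euclidean distance over the 3 log2 fold changes, among 14161 genes with a mean of at least 10 in every table, the nearest to the median of the 5 uroplakins were Fer1l4 (0.52), Ivl (0.56), Trim29 (0.57) and Aldh3a1 (0.63). Nearest to the median of Krt5, Krt14 and Trp63 were Krt19 (0.36), Sprr1a (0.47), Foxa1 (0.88) and Syt8 (1.04). Krt19 stood at 2.11, 1.03 and 8.01 in the authors' deposited tables, beside 2.09, 1.03 and 8.37 for that median. Fer1l4, Ivl, Krt19 and Sprr1a had the status Outlier in all 3 comparisons, and so no p-value. In females every gene named here as nearest had that status. The 3-month value weighs most in this distance, since it spans the widest range.

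The choice of scaling moves all values of a table by 1 constant. Scaling both genotypes to equal summed counts adds 0.18 (3-week males), 0.15 (females) and 0.58 (3-month males) to every log2 fold change, so the members' values stand relative to that shift, and the share of calls that are higher moves from 50.8% to 75.2%, from 44.2% to 74.0% and from 51.7% to 87.0%. The summed counts per genotype are not known and were implied from means and fold changes. This takes equal numbers of libraries and fold changes not drawn towards 0, so these shifts and shares are rough.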

How the data were processed

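Polyadenylated RNA of kidneys was sequenced from stranded libraries, per the labels' protocols. The submitters' processing notes name STAR, HOMER, DESeq2 and the build mm10; the sources used here give no versions and do not say whether counting used strand. The authors deposited 3 tables of their own comparisons. Per the file headers, the columns are a mean normalized count (a signal across libraries), a log2 fold change, its standard error, raw and adjusted p-values, and a status. Checked on the values, 99.98% to 100% of deposited p-values equalled the normal p of fold change over standard error within 1%. The libraries in each table, the ratio's direction and the rule of the status Outlier are not given. The labels name littermate samples, so a p-value here reflects only how far the libraries used differ among themselves.

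Python 3.11.15, pandas 2.3.3, numpy 2.4.6 and scipy 1.17.1 were used, and 27 symbols turned into dates were left out. Groups came from the titles. A gene was called at the authors' adjusted p under 0.05. The planned count models could not be used without values per library. Named genes were drawn from the members, Esrrg, the 3 list genes with the smallest p per table, list genes whose difference between tables passed, and the 4 nearest genes. Dst, Krt17, Tfap2a, Itga6, Lama3, Gjb2, Msln, Gpm6a, Lep, Cfd, Cnfn, Slc14a2, Aqp2, Slc34a1, Nphs1 and Xist were named after their values were seen. Beside these, 2 genes of the lists as first drawn up were left out, are not reported here and enter no count, median or sum. Members and lists were chosen with earlier results of these data known. Alternatives were other thresholds, filters and scalings.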

Additional observations from a re-analysis of the deposited data

Results flagged for a closer look

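The fold changes of 14 list genes differed between 3-month and 3-week males by the test of the difference, and each is given as the 3-month value minus the 3-week value on the log2 scale. In the list of superficial and differentiating urothelium these were 3.69 for Klf5, 1.79 for Ehf, 2.01 for Cldn4 and 1.11 for Mal. Genes of this list need not be specific to urothelium. Mal, Ehf and Cldn4 had means of 24835, 5867 and 3739 normalized counts in 3-week males, against at most 1695 for a uroplakin. In the list of basal keratins and hemidesmosome genes they were 4.63 for Col17a1, 2.39 for Itgb4 and 1.00 for Itga3. Desmosome and adhesion genes gave 1.17 for Dsc2, 1.12 for Dsg2, 1.59 for Dsp and 1.01 for Cdh3. Lrrn4 of mesothelium differed by 2.19, Cryab of the inner medulla by 2.05 and Tgm1, a transglutaminase, by -2.18. All 14 kept their sign and their call under both other scalings, which move the difference by -0.017 and 0.40. A stronger draw of fold changes towards 0 at 3 weeks can be part of these differences and was not tested.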

How the results depend on the processing

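With an adjusted p under 0.01 in place of 0.05, 1681 genes were called in 3-week males in place of 2540, 1710 in females in place of 2651, and 0 of the 10 genes in females in place of 1 (Trp63). With p-values computed from fold changes and standard errors for all genes, outlier and low ones included, 8, 2 and 10 of the 10 genes were called higher in 3-week males, females and 3-month males in place of 2, 1 and 5, 38 list genes were called higher in 3-week males in place of 25, and 71 at 3 months in place of 31. Over all genes 1334, 1150 and 4782 were then called higher, in place of 1291, 1173 and 3819. Nothing is read from these counts of members, which were chosen from the same fold changes. With total-count scaling 13 list genes were called higher in females in place of 8. Of the 60 member fold changes under other scalings, 55 moved by less than their standard error and 5, all at 3 months with total-count scaling, by more. The other counts of all calls, of the 10 genes and list genes called higher, and of differences between tables stayed within 1.5 times. By direction, total-count scaling took the calls higher from 1291 to 2129, 1173 to 2446 and 3819 to 7682 (3-week males, females, 3-month males) and the calls lower from 1249 to 701, 1478 to 859 and 3563 to 1147. The summed counts behind this scaling were implied from means and fold changes and are rough. Leaving out a library was not run, since it needs values per library. No paired analysis was possible because the libraries are numbered without repeats across groups and the tables hold no library values.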
